A study of Mus musculus with 26 samples.

Results

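The genes described here are 5 that handle zinc in the pancreatic islets of mice: the metallothioneins Mt1 and Mt2, the zinc exporters Slc30a1 and Slc30a8, and the importer Slc39a14. They and the gene lists below were picked by name with earlier results of these data known. Their counts and medians beside those of all genes therefore only describe them. Each of the 5 genes is represented by the brightest of the probe sets that the platform annotation assigns to it alone. They are 5 of 12580 genes tested. Gene expression was measured on 26 whole-genome mouse arrays, 1 islet RNA sample each, from male mice that the labels give as wild-type C57BL6. Old islets came from mice of 56 weeks and had 4 groups of 2 arrays: fresh, or after 1 day of recovery at 11 mM glucose and then 2 days at 3, 5.5 or 11 mM. Young islets came from mice of 5 weeks. They had 2 arrays each for fresh islets and for culture at 3, 5.5 and 16 mM, and 4 arrays at 11 mM. A time course in young islets had 2 arrays each at time 0, after a night at 3 mM, and then at 1 h and 4 h of 11 mM. No islets stayed at 3 mM through those hours, so glucose and time in culture cannot be told apart there. Per the labels the replicates are biological, but whether a sample pools several mice is not stated, and p-values reflect only how far these samples spread.

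Zinc is stored with insulin in the secretory granules of beta cells, which carry much more of it than most cells. Slc30a8 moves zinc from the cytosol into those granules, Slc30a1 moves it out of the cell across the plasma membrane, and Slc39a14 brings zinc, and also iron and manganese, into the cytosol. Mt1 and Mt2 are small cysteine-rich proteins that bind zinc and copper. When free zinc rises, the sensor MTF1 binds short metal response elements in DNA and raises transcription of the metallothionein genes and of Slc30a1.

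RefSeq promoter windows of GRCm38.p6, covering 250 bases before and 50 after the start of the gene, were at hand for 3 of the 5 genes. They are the windows of Mt1, Mt2 and Slc30a1, and none was at hand for Slc30a8 and Slc39a14. Capitals mark each match to TGCACNC or TGCGCNC, the core of the metal response element, read on both strands (a match on the reverse strand shows as GNGTGCA or GNGCGCA). The windows are chr8:94178839-94179138 for Mt1, chr8:94172368-94172667 for Mt2 and chr1:191906531-191906830 for Slc30a1, all on the plus strand.
Mt1: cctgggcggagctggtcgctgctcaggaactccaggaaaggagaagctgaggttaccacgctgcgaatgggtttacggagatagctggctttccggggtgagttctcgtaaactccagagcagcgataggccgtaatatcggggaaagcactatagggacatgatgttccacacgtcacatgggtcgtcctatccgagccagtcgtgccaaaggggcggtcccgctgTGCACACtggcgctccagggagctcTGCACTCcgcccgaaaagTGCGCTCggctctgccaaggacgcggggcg
Mt2: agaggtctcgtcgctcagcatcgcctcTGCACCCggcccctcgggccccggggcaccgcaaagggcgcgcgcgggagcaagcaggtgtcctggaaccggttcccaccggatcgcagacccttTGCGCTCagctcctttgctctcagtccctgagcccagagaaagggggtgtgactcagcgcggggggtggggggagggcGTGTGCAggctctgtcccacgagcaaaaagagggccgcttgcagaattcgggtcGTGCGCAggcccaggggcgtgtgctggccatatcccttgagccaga
Slc30a1: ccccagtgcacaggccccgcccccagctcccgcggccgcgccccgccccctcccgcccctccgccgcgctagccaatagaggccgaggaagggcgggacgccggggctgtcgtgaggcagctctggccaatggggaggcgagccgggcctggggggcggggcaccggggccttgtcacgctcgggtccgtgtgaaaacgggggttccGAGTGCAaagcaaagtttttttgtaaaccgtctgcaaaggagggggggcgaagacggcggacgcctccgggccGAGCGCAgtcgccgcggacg
The Mt1 window held 3 matches, at -23, 3 and 21 relative to the start that the window uses, and the Mt2 window held 4. Bases outside these windows were not searched. The Slc30a1 window held 2, both on the reverse strand. Of 32851 RefSeq promoter windows of the same length, 25.7% held at least 1 match, 7.11% at least 2, 1.97% at least 3 and 0.517% at least 4. A match describes letters in these windows and is not a measured binding site. Slc30a8 and Slc39a14 are named only.

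Values are deposited signals, brightness on a linear scale, and changes are on the scale of log2(signal + 16), which understates the change of dim genes. A gene is said to rise or fall where limma's adjusted p, over all 12580 genes of a comparison, is under 0.05. The arrays form 2 sets, which no label describes. In set A, the ratio of Gapdh control signals at the 5' and 3' ends ran between 1.03 and 1.48. Its 12 arrays are all old ones, those of fresh young islets, and replicates 3 and 4 of the young 11 mM group. The ratio ran between 0.1 and 0.277 on the 14 arrays of set B, which are the other young arrays. Between the sets, young islets at 11 mM differed in 4988 genes, 39.7% of those tested. Mt1 was 1.17 higher in set A than in set B (SE 0.32, adjusted p = 0.006), Slc30a8 was 1.33 higher (SE 0.23, adjusted p = 8.84e-05) and Slc39a14 was 0.72 lower, a log2 difference of -0.72 (SE 0.16, adjusted p = 0.000986). Mt2, at 0.10 (SE 0.25, adjusted p = 0.788), and Slc30a1, at -0.24 (SE 0.23, adjusted p = 0.441), did not pass. The fit therefore has the set as a factor. Young islets at 11 mM enter comparisons with young islets at other glucose levels through replicates 1 and 2, and comparisons with old or fresh islets through replicates 3 and 4. For culture at 3 mM and at 5.5 mM the ages are split between the sets, and their comparison rests on the set difference measured at 11 mM.

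**Figure D1:**
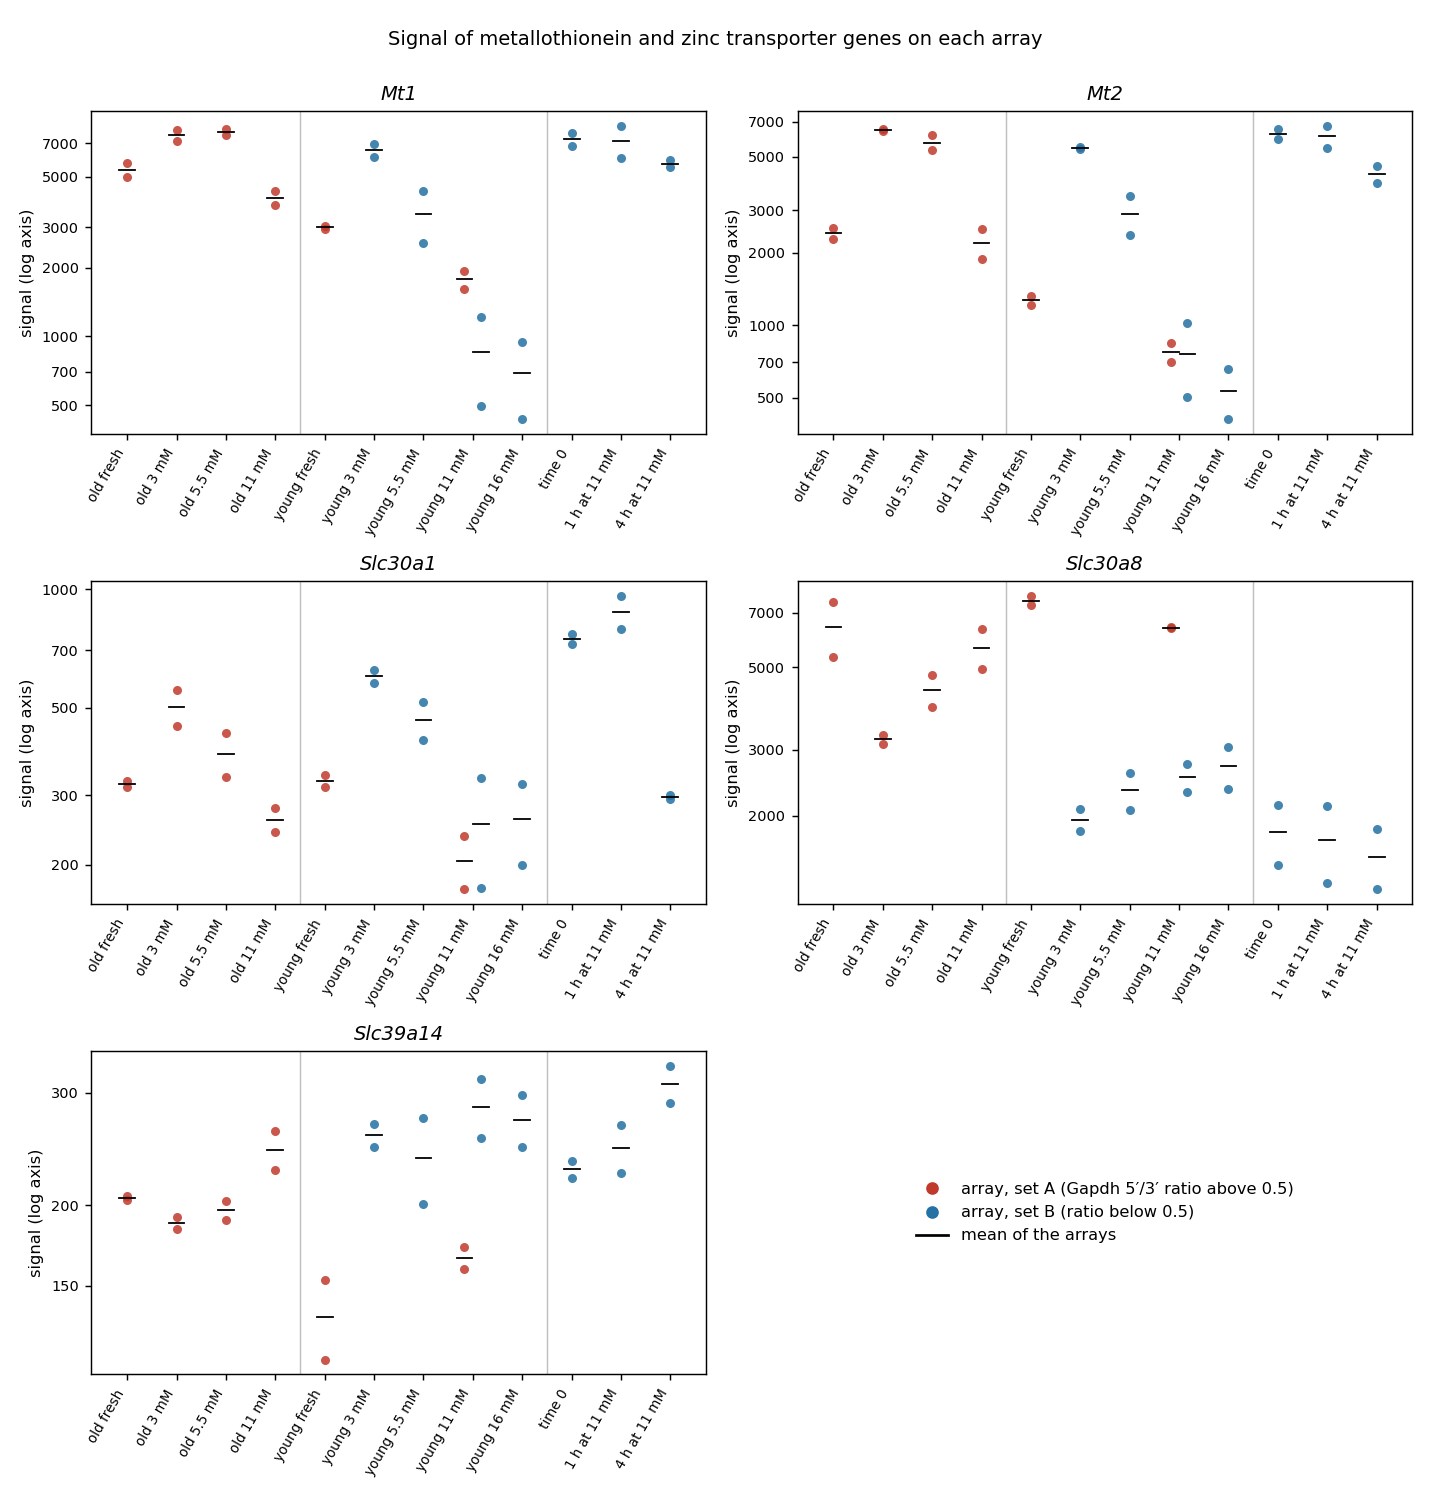
Deposited signal on a log axis for Mt1, Mt2, Slc30a1, Slc30a8 and Slc39a14 on each of 26 arrays, by group (old, young, and the time course in young islets), with points coloured by array set and black lines for the mean within a set. In young islets Mt1 lies at 6121 and 6919 at 3 mM glucose and at 943 and 434 at 16 mM.

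Mt1 and Mt2 fell steeply with glucose in young islets. At 3 mM Mt1 had signals of 6121 and 6919, at 5.5 mM 4314 and 2551, at 11 mM 1210 and 495 in set B, and at 16 mM 943 and 434. All arrays at 5.5 mM lay below those at 3 mM, and all arrays at 11 and 16 mM lay below those at 5.5 mM, while the 11 and 16 mM arrays overlapped. Mt2 had 5485 and 5408 at 3 mM, 3437 and 2374 at 5.5 mM, 1018 and 504 at 11 mM and 658 and 406 at 16 mM, in the same order. At 16 against 3 mM, Mt1 fell by 3.31 on the log2 scale (SE 0.32, adjusted p = 3.63e-07), which is 9.93-fold lower, and Mt2 fell by 3.36 (SE 0.25, adjusted p = 1.09e-08), which is 10.2-fold lower.

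Slc30a1, the exporter, fell with them. It had 321 and 200 at 16 mM against 624 and 579 at 3 mM, a log2 change of -1.19 (SE 0.23, adjusted p = 0.000537). These 3 genes were the members that changed at 16 against 3 mM, where 28.7% of all genes changed and 14.2% fell. The median change of the 5 members was -1.19, and that of all genes was 0.01. A dimmer Slc30a1 probe set, 1422786_at, tested among all probe sets of 1 gene, did not pass. Its change was -0.60 (SE 0.24, adjusted p = 0.101). In bulk samples, fewer cells of a type and less RNA per cell cannot be told apart.

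At 11 against 3 mM the same 3 genes fell in young islets, where 26.4% of all genes changed and 13.1% fell. The log2 change was -3.04 for Mt1 (SE 0.32, adjusted p = 1.17e-06), -2.90 for Mt2 (SE 0.25, adjusted p = 8.47e-08) and -1.26 for Slc30a1 (SE 0.23, adjusted p = 0.000409). Replicate 2 at 11 mM is the lower array for all 3 genes, and without it the Slc30a1 value was -0.83 (adjusted p = 0.0186). The members' median was -1.26 and that of all genes 0.05. The dimmer Slc30a1 probe set changed by -0.69 without passing (SE 0.24, adjusted p = 0.0594).

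The middle concentration divides the fall into steps. At 5.5 against 3 mM Mt2 fell by 0.93 (SE 0.25, adjusted p = 0.0278), the 1 member to pass where 6.06% of all genes changed and 3.08% fell. That call depends on the arrays: without replicate 2 at 5.5 mM the change was -0.66 (adjusted p = 0.331), and without either array at 3 mM it was -0.92 and -0.94 (adjusted p = 0.137 and 0.131). Mt1 was 0.97 lower, a log2 change of -0.97 (SE 0.32, adjusted p = 0.0772), and passed with the replicate number as a block (adjusted p = 0.00464). Slc30a1 changed by -0.36 (SE 0.23, adjusted p = 0.407).

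At 11 against 5.5 mM Mt1 fell by 2.07 (SE 0.32, adjusted p = 0.000621) and Mt2 by 1.97 (SE 0.25, adjusted p = 8.95e-05). Slc30a1 fell by 0.90 (SE 0.23, adjusted p = 0.0338), so that 3 members passed where 3.24% of all genes changed and 1.78% fell. The Slc30a1 step rests on 1 array, since without replicate 2 at 11 mM it was -0.46 (adjusted p = 0.5), and it was -0.75 without replicate 1 at 5.5 mM (adjusted p = 0.348). Between 16 and 11 mM no member passed, and 0.00795% of all genes did. There Mt1 differed by -0.27 (95% interval -0.93 to 0.39), Mt2 by -0.46 (-0.97 to 0.05) and Slc30a1 by 0.07 (-0.41 to 0.55).

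In old islets Mt2 and Slc30a1 also fell with glucose, and Mt1 did so near the threshold. Mt2 had 1888 and 2506 at 11 mM against 6406 and 6561 at 3 mM, a log2 change of -1.57 (SE 0.25, adjusted p = 0.000117), or 2.97-fold lower. Slc30a1 had 278 and 242 at 11 mM against 555 and 449 at 3 mM and fell by 0.90 (SE 0.23, adjusted p = 0.00636). Its call was lost without replicate 2 at 11 mM (-0.81, adjusted p = 0.0592) or without replicate 1 at 3 mM (-0.76, adjusted p = 0.0867). Mt1 had 3749 and 4344 at 11 mM against 7192 and 7978 at 3 mM, with no overlap, and fell by 0.91 (SE 0.32, adjusted p = 0.0429). Without any 1 of those 4 arrays its adjusted p was 0.0933 to 0.182. With Slc30a8, described below, 4 of 5 members passed at 11 against 3 mM in old islets, where 24.6% of all genes did. The members' median was -0.90 and that of all genes 0.04. The dimmer Slc30a1 probe set, 1422786_at, also fell, with 15 and 21 at 11 mM against 89 and 67 at 3 mM (adjusted p = 0.000297). A dimmer Mt1 probe set, 1451612_at, changed by -0.81 without passing (SE 0.32, adjusted p = 0.116). In that fit over all probe sets the brighter one did not pass either (adjusted p = 0.0745).

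At 5.5 mM the old islets stayed close to 3 mM for the metallothioneins. Mt1 had 8113 and 7574 at 5.5 mM against 7192 and 7978 at 3 mM, with overlapping arrays and a log2 change of 0.05 (95% interval -0.61 to 0.71). Mt2 changed by -0.18 (-0.69 to 0.33) and Slc30a1 by -0.38 (-0.86 to 0.10). No member passed there, where 4.69% of all genes did. At 11 against 5.5 mM Mt2 alone of the 5 fell in old islets, where 4.36% of all genes changed and 2.01% fell: its log2 change was -1.39 (SE 0.25, adjusted p = 0.00238), and -1.29 without replicate 1 at 5.5 mM (adjusted p = 0.0557). Mt1 had 3749 and 4344 at 11 mM against 8113 and 7574 at 5.5 mM, a log2 change of -0.96 (SE 0.32, adjusted p = 0.0971).

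**Figure D2:**
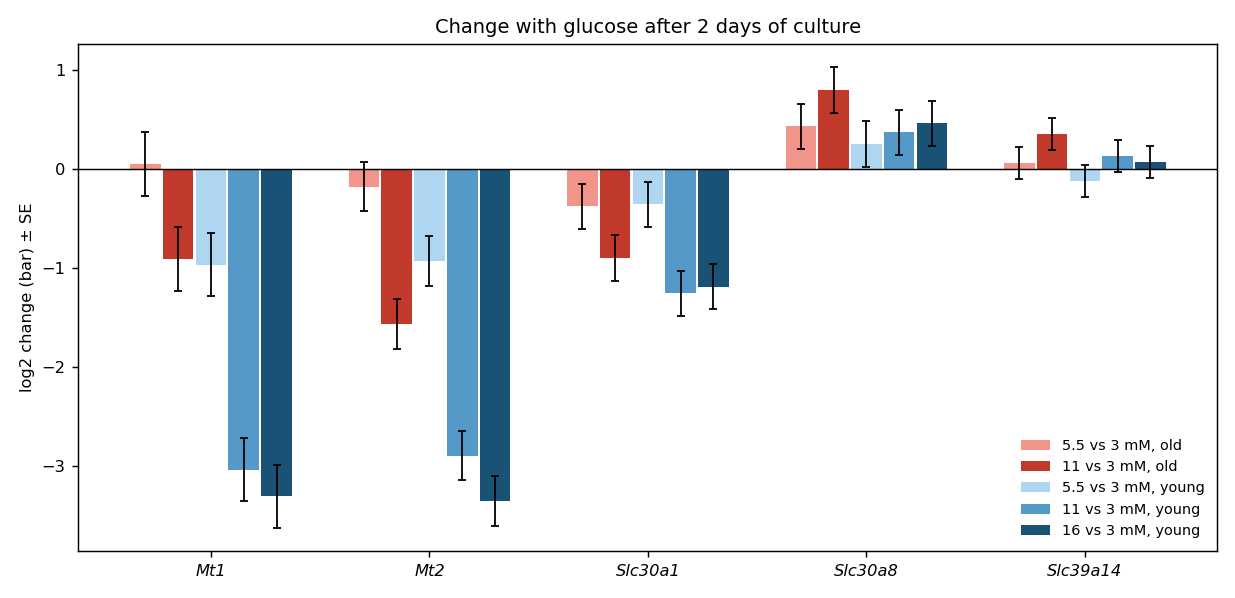
Log2 change of log2(signal + 16), drawn as bars with limma's standard errors, for 5.5 and 11 mM against 3 mM in old islets and for 5.5, 11 and 16 mM against 3 mM in young islets. The bars for Mt1 and Mt2 at 11 against 3 mM reach -0.91 and -1.57 in old islets, and -3.04 and -2.90 in young islets.

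Whether the fall of the metallothioneins between 11 and 3 mM differs with age was tested directly, and no difference passed. The change in old minus the change in young islets was 2.14 for Mt1 (SE 0.45, 95% interval 1.20 to 3.08, adjusted p = 0.0586) and 1.33 for Mt2 (SE 0.35, 0.60 to 2.05, adjusted p = 0.129). In that difference no member passed, and 0.143% of all genes did. The young 11 mM arrays set its size. Without replicate 1 of that group the values were 2.77 for Mt1 (adjusted p = 0.00832) and 1.82 for Mt2 (adjusted p = 0.0161). Without replicate 2 they were 1.51 for Mt1 (adjusted p = 0.246) and 0.83 for Mt2 (adjusted p = 0.474). With the replicate number as a block, both passed (adjusted p = 0.00199 for Mt1 and 0.00688 for Mt2). That block also pairs old arrays by number, where the pairing check gave an r of only 0.0556 to 0.196. The old change was measured on set A and the young change on set B, and the part of the sets in this difference was not tested. The difference for Slc30a1 was 0.36 (95% interval -0.32 to 1.03). For 5.5 against 3 mM no member passed and 0% of all genes did, with 1.02 for Mt1 (95% interval 0.08 to 1.96, adjusted p = 0.905).

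Old islets had more metallothionein RNA than young islets at 11 mM. Mt2 had 1888 and 2506 in old islets against 843 and 700 in young islets of the same array set, a log2 difference of 1.48 (SE 0.25, adjusted p = 0.000467), or 2.79-fold higher. Mt1 had 3749 and 4344 in old against 1941 and 1609 in young islets and was 1.18 higher (SE 0.32, adjusted p = 0.0157). The call for Mt1 was lost without replicate 2 of the old group (1.08, adjusted p = 0.12) or replicate 4 of the young group (1.05, adjusted p = 0.115). Slc30a1 had 278 and 242 in old against 236 and 173 in young islets, a difference of 0.34 that did not pass (SE 0.23, adjusted p = 0.347). With Slc39a14, 3 of 5 members were higher in old islets at 11 mM, where 10% of all genes were higher and 15.6% changed in either direction. The members' median was 0.52 and that of all genes 0.02. The dimmer Slc30a1 probe set, 1422786_at, lay the other way without passing. It had 15 and 21 in old against 40 and 41 in young islets (adjusted p = 0.058).

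In fresh islets Mt2 had 2522 and 2291 in old against 1212 and 1320 in young islets, a log2 difference of 0.92 (SE 0.25, adjusted p = 0.0228). The groups did not overlap, but the call was lost without any 1 of the 4 arrays, with adjusted p of 0.0731 to 0.145. Mt1 had 5728 and 4997 in old against 3053 and 2949 in young islets, which is 0.83 higher without passing (SE 0.32, adjusted p = 0.105). Slc30a1 had 326 and 315 in old against 338 and 315 in young islets, with overlapping arrays and a difference of -0.02 (95% interval -0.50 to 0.45). Of the members, 2 of 5 were higher in fresh old islets, Mt2 and Slc39a14, where 5.75% of all genes were higher and 9.44% changed in either direction.

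At 5.5 and 3 mM, where the ages lie in different array sets, no member passed between old and young islets, and 2% and 3.25% of all genes did. After the set correction, Mt1 differed by -0.95 at 3 mM (95% interval -1.89 to -0.02, adjusted p = 0.273) and Mt2 by 0.15 (-0.57 to 0.88, adjusted p = 0.875). At 5.5 mM Mt2 differed by 0.90 (0.18 to 1.63, adjusted p = 0.183). These values turn on the young 11 mM arrays that measure the set difference. At 3 mM, without replicate 1 of that group they were -1.58 for Mt1 (adjusted p = 0.0499) and -0.34 for Mt2, and without replicate 2 they were -0.32 for Mt1 and 0.65 for Mt2. At 5.5 mM Mt2 was at 0.41 without replicate 1 and at 1.40 without replicate 2 (adjusted p = 0.606 and 0.0297). Without the set term Mt1 at 3 mM turned to 0.22 (adjusted p = 0.743), and Mt2 at 5.5 mM was at 1.00 (adjusted p = 0.016). With the replicate block Mt2 passed at 5.5 mM (adjusted p = 0.0242) and Slc30a8 at 3 mM (adjusted p = 0.00922). No direction is therefore drawn at 3 mM.

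Stellate cell and fibroblast markers were lower in old islets. Of 12580 genes tested, 465 were lower in fresh old islets and 703 at 11 mM. Of these markers, 6 of 6 were lower in fresh islets and 5 of 6 at 11 mM. The summed signal of these 6 genes, such as the collagen gene Col3a1, was 1319 to 1394 in old and 3934 to 4248 in young islets of set A at 11 mM, and 634 to 770 in old and 2213 to 3379 in young fresh islets. That of 6 macrophage genes was 1672 to 1720 in old and 911 to 1358 in young islets at 11 mM, and 1046 to 1183 in old and 873 to 982 in young fresh islets, but of these 6 genes only Cd68 was higher at 11 mM and 0 passed in fresh islets. The duct cell gene Krt7 was higher in old islets in both comparisons. In fresh old islets the hormone genes Gcg, Sst and Ppy were lower, as were Ttr, Rbp4 and the beta cell gene Pcsk1. Gcg varied together with cre-3, a hybridization control described below, with a Pearson r of 0.99 over the 12 arrays of set A. That control was 8519 to 13251 in fresh old and 15072 to 15705 in fresh young islets. Its part in these differences was not tested. At 11 mM Pcsk1 and the endothelial gene Emcn were lower in old islets. None of the stellate cell, fibroblast and macrophage genes was at 0 on any array. The part of these cells in the metallothionein difference was not tested.

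By their brightest probe sets, Mt1 and Mt2 in fresh islets lay between the highest and lowest cultured groups of set A. That order pools the ages, since the young cultured islets of set A were all at 11 mM. In set A, Mt1 means ran from 7844 ± 381 (SD, n = 2 for each of these groups) in old islets at 5.5 mM and 7585 ± 556 at 3 mM, whose arrays overlapped, through 5362 ± 517 in fresh old islets, 4046 ± 421 in old islets at 11 mM and 3001 ± 73.5 in fresh young islets to 1775 ± 235 in young islets at 11 mM. For Mt2 the order was old 3 mM (6484 ± 110), old 5.5 mM (5743 ± 585), old fresh (2406 ± 163), old 11 mM (2197 ± 437), young fresh (1266 ± 76.4) and young 11 mM (772 ± 101). Only fresh and 11 mM old islets overlapped in that series. A dimmer Mt1 probe set, 1451612_at, described below, was highest in fresh islets at each age within set A. It had 451 and 328 in fresh old islets against 43 to 184 in cultured old islets. In young islets it had 158 and 110 when fresh against 3 and 3 at 11 mM.

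Against fresh old islets, culture at 3 mM raised Mt2 by 1.43 (SE 0.25, adjusted p = 0.000149) and culture at 5.5 mM raised it by 1.25 (SE 0.25, adjusted p = 0.00141). Slc30a1 had 555 and 449 at 3 mM against 326 and 315 in fresh old islets and rose by 0.61 (SE 0.23, adjusted p = 0.0419), a call that no fit with 1 array left out kept (adjusted p = 0.0521 to 0.256). Including the fall of Slc30a8, 3 of 5 members changed at 3 mM, where 35.1% of all genes did. At 5.5 mM 1 member rose, where 17% of all genes changed and 8.7% rose. At 11 mM no member passed against fresh islets at either age by its brightest probe set, where 5.56% of genes changed in old and 4.19% in young islets. Mt1 had 1941 and 1609 in young islets at 11 mM against 3053 and 2949 in fresh young islets, a difference of -0.76 (95% interval -1.42 to -0.10, adjusted p = 0.238). Slc30a1 had 236 and 173 against 338 and 315, a difference of -0.65 (-1.13 to -0.17, adjusted p = 0.135). With the replicate block 3 members passed as lower in young islets, Mt1, Mt2 and Slc30a1 (adjusted p = 0.0292, 0.00842 and 0.0109). The young 11 mM arrays compared here are replicates 3 and 4, which the block leaves out, so it pairs no arrays in this comparison. A dimmer Slc30a1 probe set, 1422786_at, was lower in old islets at 11 mM, with 15 and 21, than in fresh old islets, with 44 and 53 (adjusted p = 0.0377), and in young islets it did not pass (adjusted p = 0.998). A dimmer probe set of Mt1 was lower as well and is described below. The change with culture did not pass as different between old and young islets for any member, where 0.0238% of genes passed.

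Markers of some other cells differed between cultured and fresh islets, in both directions. The summed signal of 6 acinar cell genes was 37 to 427 in cultured old islets against 17441 to 30461 in fresh old islets, and 45 to 378 in young islets at 11 mM in set A against 7955 to 14372 in fresh young islets. That of 6 endothelial genes was 232 to 437 in cultured against 2275 to 2344 in fresh old islets. Other lists ran the opposite way in their sums: 2 duct cell genes had 2024 to 2969 in cultured against 1207 to 1455 in fresh old islets, 6 macrophage genes had 1636 to 1916 against 1046 to 1183, and 6 stellate cell and fibroblast genes had 907 to 1731 against 634 to 770. At 11 mM against fresh old islets, 6 of 6 acinar and 6 of 6 endothelial genes fell, and 1 of 2 duct cell genes rose. Of the macrophage genes 2 rose and 1 fell, and of the stellate cell and fibroblast genes 3 rose and 1 fell. Of 12580 genes tested, 351 rose and 348 fell in that comparison. The part of these cells in the comparison with fresh islets was not tested.

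The probe sets of Mt1 disagreed in culture and over hours. A second, dimmer probe set that the annotation gives to Mt1 alone, 1451612_at, ranged from 3 to 451. With every probe set of 1 gene tested alone (34945 probe sets), it was lower at 16 mM, with 4 and 4, than at 3 mM, with 93 and 112, in young islets (adjusted p = 1.49e-05). It was higher in old islets at 11 mM, with 43 and 57, than in young islets of set A, with 3 and 3 (adjusted p = 0.00173). The median of all probe sets on an array was 28 to 42, so values of 3 and 4 are only low and no size of change is given against them. In fresh islets it was also higher in old than in young islets, by 1.44 (SE 0.32, adjusted p = 0.0142), with 451 and 328 in old against 158 and 110 in young islets.

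Against fresh islets, however, this probe set fell in all 4 comparisons. In old islets it had 104 and 94 at 3 mM against 451 and 328 when fresh, a change of -1.80 (SE 0.32, adjusted p = 0.000416), where the brighter probe set gave 0.50. In young islets at 11 mM it had 3 and 3, against 158 and 110 in fresh young islets (adjusted p = 1.07e-05). The brighter one, 1422557_s_at, reached 79.4% of the signal of the brightest probe set on its array. Its suffix marks a probe set that can share bases with other transcripts, and Mt1 and Mt2 are similar in sequence. The part of brightness or shared bases in this disagreement was not tested. Mt2 had 1 probe set.

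Slc30a1 fell within 4 h of the step to 11 mM glucose. Slc30a1 had 769 and 724 at time 0, 962 and 793 at 1 h, and 301 and 294 at 4 h. Both arrays at 1 h lay above those at time 0, and both arrays at 4 h lay far below. It fell by 1.28 at 4 h against time 0 (SE 0.23, adjusted p = 0.000901), or 2.43-fold lower, and fell by 1.50 at 4 h against 1 h (SE 0.23, adjusted p = 0.000839). At 1 h it differed from time 0 by 0.22 (95% interval -0.25 to 0.70). It was the 1 member to pass at 4 h against time 0, where 11.4% of all genes changed and 5.64% fell, and at 4 h against 1 h, where 3.09% changed and 1.82% fell. No member passed at 1 h, where 0.262% of genes did. Its dimmer probe set, 1422786_at, had 98 and 84 at time 0, 147 and 107 at 1 h, and 61 and 52 at 4 h. That is a change of -0.97 at 4 h against 1 h (SE 0.24, adjusted p = 0.0483) and of -0.56 at 4 h against time 0 (SE 0.24, adjusted p = 0.222).

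Mt1 had 7779 and 6840 at time 0, 8360 and 6026 at 1 h, and 5890 and 5501 at 4 h. The 4 h arrays lay below all others, but the change at 4 h against time 0 of -0.36 (SE 0.32, adjusted p = 0.568) did not pass. Mt2 had 6561 and 5923 at time 0, 6752 and 5437 at 1 h, and 4572 and 3910 at 4 h, a change of -0.56 at 4 h against time 0 (SE 0.25, adjusted p = 0.167). With the replicate number as a block, which pairs the time course arrays, Mt2 passed (adjusted p = 0.0203) and Mt1 did not (adjusted p = 0.279). The dimmer Mt1 probe set 1451612_at had 270 and 211 at time 0, 78 and 61 at 1 h, and 10 and 18 at 4 h. Its 4 h values lie under the array medians, so no size is given for its fall at 4 h against time 0 (adjusted p = 1.17e-05). The brighter probe set had an adjusted p of 0.713 in the same fit over all probe sets. The median of the members at 4 h against time 0 was -0.36, and that of all genes was -0.01.

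**Figure D3:**
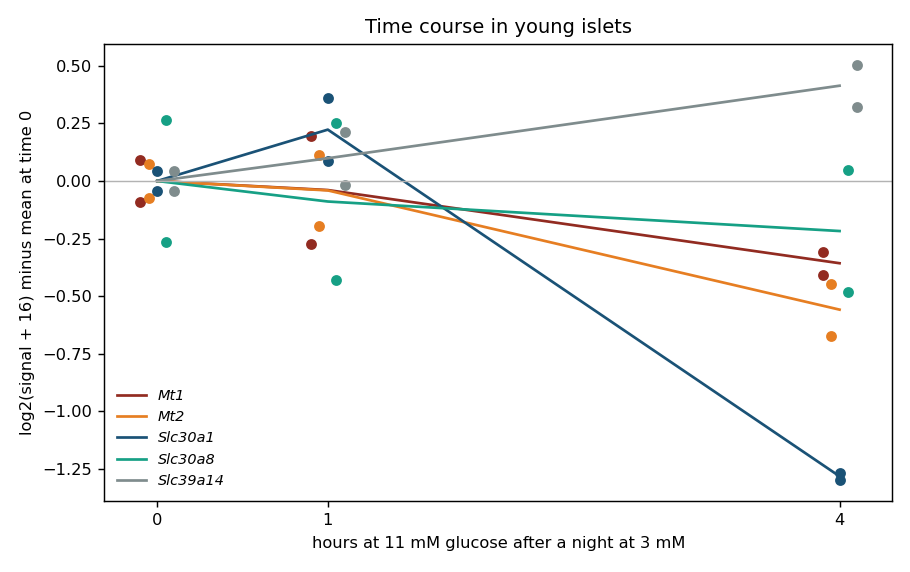
Log2(signal + 16) minus its mean at time 0 for the 5 genes in young islets at 0, 1 and 4 h of 11 mM glucose, with points for the 2 arrays per time and lines through their means. Both Slc30a1 arrays at 4 h lie far below time 0, at a mean change of -1.28, and the line of Mt1 ends at -0.36.

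In set B the order of group means for Slc30a1 was 1 h (878 ± 120, SD, n = 2), time 0 (746 ± 31.8), young 3 mM (602 ± 31.8), young 5.5 mM (466 ± 72.8), 4 h (298 ± 4.95), young 16 mM (260 ± 85.6) and young 11 mM (253 ± 112). The last 3 overlapped, so 4 h at 11 mM and 2 days at 11 or 16 mM could not be ordered. For Mt2 the order was time 0 (6242 ± 451), 1 h (6094 ± 930), young 3 mM (5446 ± 54.4), 4 h (4241 ± 468), young 5.5 mM (2906 ± 752), young 11 mM (761 ± 363) and young 16 mM (532 ± 178). Here 4 h at 11 mM did not overlap 2 days at 11 mM. The Gapdh ratio was 0.194 to 0.277 on the time course arrays and 0.1 to 0.169 on the cultured young arrays of set B. The set term does not separate these arrays, and the part of that difference in both orders was not tested. In set A, Slc30a1 ran from 502 ± 75 in old islets at 3 mM to 204 ± 44.5 in young islets at 11 mM, and both fresh groups overlapped each other, at 320 ± 7.78 in old and 326 ± 16.3 in young islets.

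Slc30a8, the granule transporter, rose with glucose in old islets. In old islets it had 3294 and 3118 at 3 mM, 4767 and 3907 at 5.5 mM, and 6346 and 4934 at 11 mM. Each concentration lay above the one before with no overlap. At 11 against 3 mM it rose by 0.80 (SE 0.23, adjusted p = 0.0126), or 1.74-fold. The call was lost without replicate 1 at 11 mM (0.62, adjusted p = 0.129) and without either array at 3 mM (0.84 and 0.76, adjusted p = 0.0585 and 0.0709), and also without the array set term, where the spread was larger (adjusted p = 0.185). At 3 mM it was lower than in fresh old islets, at 3294 and 3118 against 7461 and 5326, and fell by 0.97 (SE 0.23, adjusted p = 0.00221), a call lost without replicate 1 of the fresh group (-0.73, adjusted p = 0.0548).

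In young islets Slc30a8 had 2079 and 1823 at 3 mM, 2599 and 2070 at 5.5 mM, 2748 and 2315 at 11 mM in set B, and 3056 and 2362 at 16 mM. At 16 against 3 mM the difference was 0.46 (SE 0.23, 95% interval -0.01 to 0.93, adjusted p = 0.137), and with the replicate block the adjusted p was 0.000877. At 11 against 3 mM it was 0.37 (SE 0.23, adjusted p = 0.248, with the block 0.00568). The difference of the change at 11 against 3 mM between old and young islets was 0.43 (95% interval -0.23 to 1.10). Between ages Slc30a8 did not pass, at -0.19 at 11 mM (95% interval -0.66 to 0.28) and -0.26 in fresh islets (-0.73 to 0.21). In set A its group means ran from 7542 ± 320 in fresh young islets, through 6394 ± 1510 in fresh old and 6378 ± 36.1 in young islets at 11 mM, which overlapped, to 3206 ± 124 in old islets at 3 mM. In set B all neighbours in the order overlapped, from 2709 ± 491 at 16 mM to 1552 ± 404 at 4 h.

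Slc30a8 varied together with cre-3, a hybridization control that is spiked into every array. Across the 26 arrays Pearson's r was 0.90. It was 0.82 over the 12 arrays of set A and 0.76 over the 6 time course arrays, but 0.07 over the 8 arrays of cultured young islets in set B. These are descriptions over arrays that share processing. The control itself was 10647 to 11763 in old islets at 11 mM against 8830 to 9424 at 3 mM. With its log2 value added to the fit, a setting chosen after the data were seen, the rise at 11 against 3 mM in old islets was 0.68 (SE 0.23, adjusted p = 0.0454). For Mt2 the r was -0.84 in set A and -0.52 in cultured young islets of set B, and for Mt1 it was -0.82 and -0.50.

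**Figure D4:**
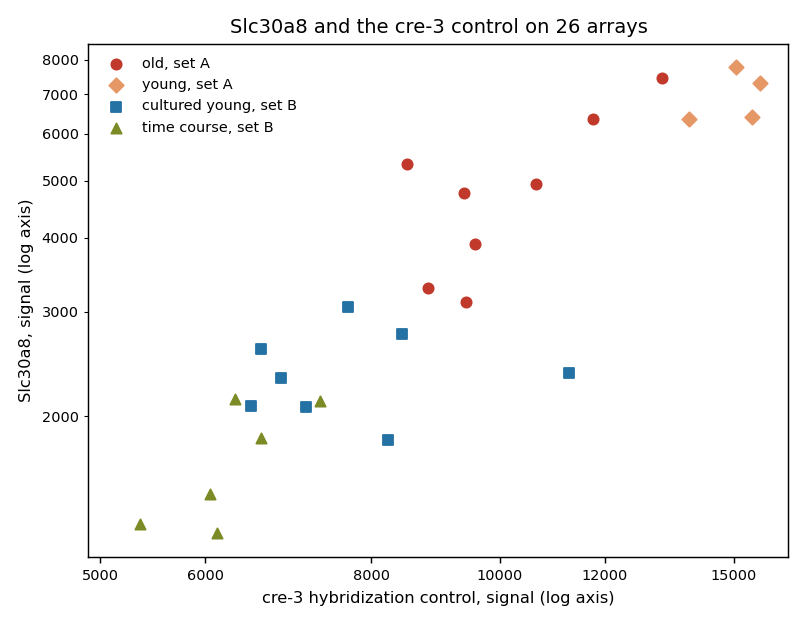
Slc30a8 signal against the signal of the cre-3 hybridization control on each of 26 arrays, both on log axes, by age and array set. The points of set A rise together (r = 0.82 over 12 arrays), and the squares of cultured young islets show r = 0.07 over 8 arrays.

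The part of the beta cells in the rise of Slc30a8 was not tested, and their markers moved with it. Of 8 beta cell markers, 6 rose at 16 against 3 mM in young islets and 6 at 11 against 3 mM in old islets, where 14.5% and 13.9% of all genes rose, among them Slc2a2, the glucose transporter, and G6pc2, an islet glucose-6-phosphatase, both of which are known to respond to glucose. The summed signal of the 8 markers was 36752 to 42589 at 16 mM against 17042 to 19764 at 3 mM in young islets, and 34175 to 41051 at 11 mM against 18160 to 20080 at 3 mM in old islets. At 4 h and time 0 the summed signal was 17057 to 21380 and 17089 to 21314. No marker of the list was at 0 on any array.

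By its brightest probe set in the main fit, Slc39a14, the importer, did not pass in any comparison of glucose levels and was higher in old islets. It had 247 and 268 at 3 mM, 201 and 274 at 5.5 mM, 255 and 315 at 11 mM in set B, and 247 and 297 at 16 mM in young islets, with overlap throughout. At 16 against 3 mM the difference was 0.07 (95% interval -0.26 to 0.40). In old islets it had 184 and 192 at 3 mM, 203 and 190 at 5.5 mM and 227 and 261 at 11 mM. The difference of 0.35 at 11 against 3 mM did not pass (SE 0.16, adjusted p = 0.116). It did with the replicate block (adjusted p = 0.0404), although the check showed little pairing of old arrays. At 4 h against time 0 it had 330 and 289 against 235 and 221, a change of 0.41 that did not pass (SE 0.16, adjusted p = 0.0997) and did with the replicate block (adjusted p = 0.027).

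Between ages, Slc39a14 had 227 and 261 in old against 172 and 159 in young islets at 11 mM in set A, and was 0.52 higher (SE 0.16, adjusted p = 0.0299). In fresh islets it had 207 and 204 in old against 153 and 115 in young islets, and was 0.57 higher (SE 0.16, adjusted p = 0.0249). Neither call is firm. The value in fresh islets was 0.39 without replicate 2 of the fresh young group (adjusted p = 0.241), and that at 11 mM was 0.42 without replicate 2 of the old group (adjusted p = 0.209). Taken as the mean of the probe sets, the differences were 0.15 in fresh islets (adjusted p = 0.641) and 0.26 at 11 mM (adjusted p = 0.329). Of 4 probe sets 2 passed the filter on dim signals, and the dimmer of these, 1425649_at, had signals of only 14 to 36, around or under the array medians. In set A its group means ran from 244 ± 24 in old islets at 11 mM to 134 ± 26.9 in fresh young islets, and in set B all neighbours overlapped, from 310 ± 29 at 4 h to 228 ± 9.9 at time 0.

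Several other zinc genes rose where the metallothioneins and Slc30a1 fell. Of 24 further genes on the list, 17 were tested. At 16 against 3 mM in young islets 9 rose and none fell, with a median change of 0.42. At 11 against 3 mM 8 rose and 1 fell in young islets (median 0.40), and 8 rose and 1 fell in old islets (median 0.34), beside 13.3% and 13.9% of all genes that rose, and 14.5% at 16 against 3 mM. Among the importers, of which 9 of 13 were tested, Slc39a10, a plasma membrane importer, had 733 and 743 at 16 mM against 313 and 264 at 3 mM and rose by 1.31 (SE 0.14, adjusted p = 1.17e-06). In old islets it had 519 and 423 at 11 mM against 191 and 230 at 3 mM and rose by 1.10 (SE 0.14, adjusted p = 1.43e-05). Slc39a9, of the Golgi, rose by 0.89 at 16 against 3 mM in young islets (SE 0.11) and Slc39a7, which releases zinc from the endoplasmic reticulum, by 0.70 (SE 0.12). Slc39a1 rose in old islets by 0.73 at 11 against 3 mM (SE 0.18, adjusted p = 0.00617).

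Among the exporters, of which 6 of 8 were tested, 4 rose at 16 against 3 mM in young islets. At 11 against 3 mM 3 rose and 1 fell in young islets, and 1 rose and 1 fell in old islets. Of all genes, 28.7%, 26.4% and 24.6% changed in these comparisons, and nothing is read from these small counts. Slc30a7, of the Golgi, had 683 and 807 at 16 mM against 381 and 376 at 3 mM in young islets and rose by 0.94 (SE 0.14, adjusted p = 3.49e-05), and in old islets it rose by 0.83 at 11 against 3 mM (SE 0.14, adjusted p = 0.000188). Slc30a6 and Slc30a5, which work as a pair in the early secretory pathway, rose by 0.71 and 0.55 at 16 against 3 mM in young islets. In old islets at 11 against 3 mM they did not pass, at 0.28 for Slc30a6 (adjusted p = 0.0693) and 0.15 for Slc30a5 (adjusted p = 0.444). Slc30a4 fell at 11 against 3 mM, by 0.49 in old islets (SE 0.15, adjusted p = 0.0181) and by 0.42 in young islets (SE 0.15, adjusted p = 0.039). Mtf1, the zinc sensor, rose by 0.47 at 16 against 3 mM (SE 0.14, adjusted p = 0.0189), and by 0.41 in old islets at 11 against 3 mM (SE 0.14, adjusted p = 0.0436).

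At 4 h against time 0, 5 of the 17 genes rose and none fell, with a median of 0.25, where 5.72% of all genes rose. Slc39a10 had 304 and 370 at 4 h against 190 and 235 at time 0 and rose by 0.63 (SE 0.14, adjusted p = 0.00564). Slc30a7 rose by 0.62 (SE 0.14, adjusted p = 0.0048) and Slc39a7 by 0.54 (SE 0.12, adjusted p = 0.00446). Between ages at 11 mM, 1 of the 17 was higher in old islets, Slc39a9 at 0.44 (SE 0.11, adjusted p = 0.0102), and 3 were lower, among them Slc39a10 at -0.54 (SE 0.14, adjusted p = 0.0127), with 519 and 423 in old against 678 and 700 in young islets. Of all genes 10% were higher and 15.6% changed in either direction there.

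**Figure D5:**
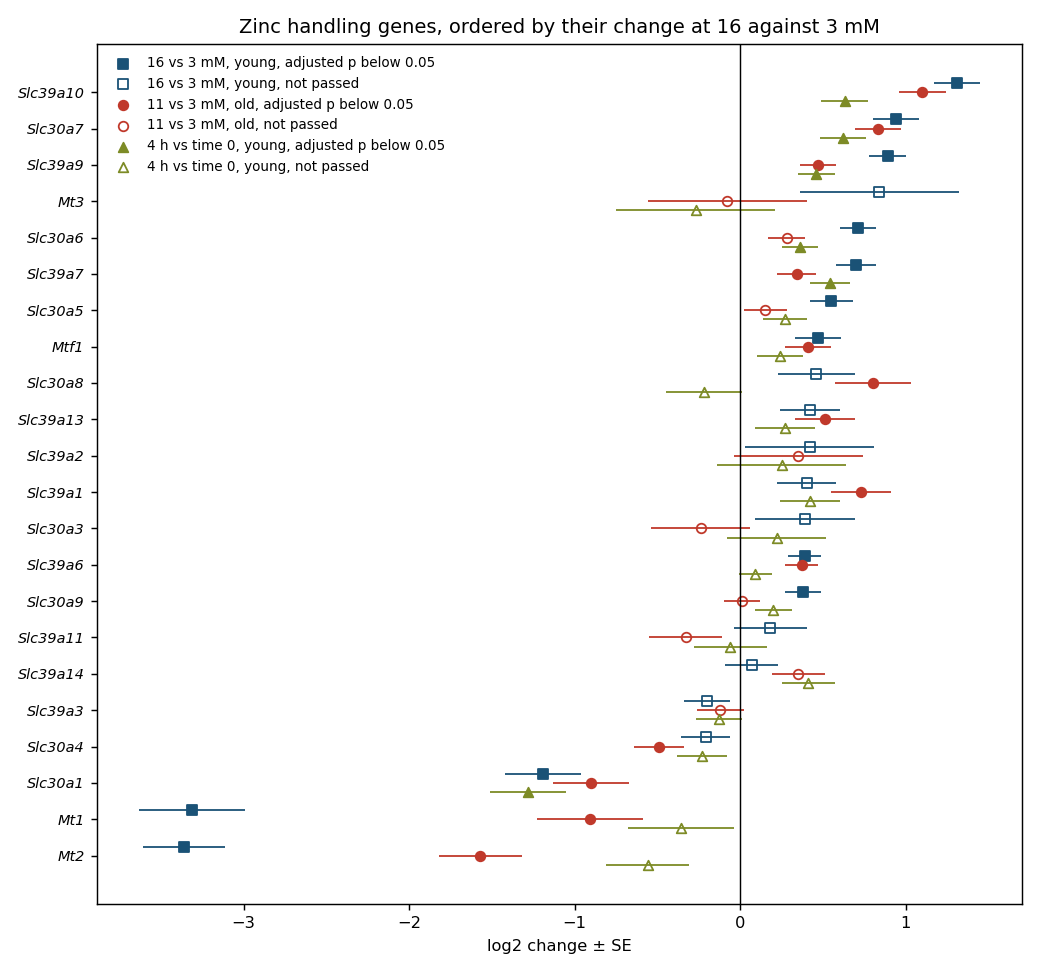
Log2 change with standard error of 22 zinc handling genes, ordered by their change at 16 against 3 mM in young islets, with 11 against 3 mM in old islets and 4 h against time 0 beside it and filled symbols where the adjusted p is under 0.05. Mt1, Mt2 and Slc30a1 lie farthest left at 16 against 3 mM, and Slc39a10 farthest right at 1.31.

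Across the 12 group means after removal of the set difference, Mt1 and Mt2 ran together with a Pearson r of 0.95. Slc30a1 had r = 0.795 with Mt1 and 0.804 with Mt2. Slc30a8 ran against them, at -0.714 with Mt1 and -0.824 with Mt2. Slc39a14 had -0.184 with Mt1 and -0.0133 with Mt2. The genes most alike to Mt1 over these groups were Plpp2 (0.955), Mt2, 1700007K13Rik (0.941) and Slc15a4 (0.938), and those most alike to Mt2 were Mettl22 (0.969), Atp11a (0.964), Plpp2 and Plbd2 (0.951 each). For Slc30a1 they were Tbc1d8 (0.924), Fbxl4 (0.916), Ddx59 (0.915) and Lonrf3 (0.914). For Slc30a8 they were Utrn (0.98), Prkg1 (0.978), Tspyl3 (0.977) and Il1r1 (0.97), and for Slc39a14 Wdr24 (0.965), Mbd1 (0.958), Zfpl1 (0.938) and Plppr2 (0.937). The groups share arrays of the same processing, and these values describe them.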

How the data were processed

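The authors deposited probe set intensities from MAS5, on a linear scale, per the submitters' processing notes, and the MAS5 version is not given in the sources used here. They had been scaled so that the trimmed mean of an array (2% off each end) is 150. Of 45101 probe sets the platform annotation gives 34945 a single gene symbol, 932 several and 9160 none, besides 64 controls. Entrez identifiers matched 34741 to a gene table of GRCm38.p6, used for names only.

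Intensities were analysed as log2(value + 16). Probe sets brighter than the median of their array on 2 or more of 26 arrays were kept (23047), and the one with the highest mean stood for a gene (12580 genes). limma 3.58.1 (R 4.3.3) estimated 12 group means and a term for the array set, using an intensity trend, 13 residual and 7.02 prior degrees of freedom, 22 contrasts and Benjamini-Hochberg adjustment over all genes. Precision is limited by how few arrays there are. The code was tested on simulated data.

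To check for pairing, residuals from the group means were correlated between arrays of the same replicate number. The r was 0.169 to 0.417 over 6 pairs of cultured young groups in set B and 0.551 to 0.63 over 3 pairs of the time course, which were taken as paired. It was 0.0556 to 0.196 over 6 pairs of old groups, which were not. A fit with replicate blocks has 10 residual degrees of freedom.

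The members and gene lists were chosen with earlier results of these data known. Named genes are the members, up to 4 genes of each list past the threshold with the smallest adjusted p whose arrays do not overlap, and the 4 genes most alike to each member. Alternatives changed the offset, filter, scaling, probe set rule, intensity trend, set term, arrays and replicate block. Detection calls were not used here.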

Additional observations from a re-analysis of the deposited data

How the results depend on the processing

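Of 110 results for single members, 26 passed the threshold. All 26 kept their direction under every alternative run, and 16 also passed under each setting other than the cre-3 covariate and leaving out an array. Of the 122 fits of these 26 results with 1 array left out, 90 passed and 32 did not. Both metallothioneins and Slc30a1 at 16 and at 11 against 3 mM in young islets, Mt2 at 11 against 3 mM in old islets and in old against young islets at 11 mM, and Slc30a1 at 4 h passed in all of those fits. Precision is limited by groups of mostly 2 arrays.

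The number of members that changed moved as follows, the cause not tested except where arrays were removed. For 5.5 against 3 mM in young islets it was 1, but 0 without the set term, with only arrays of the same set or without the intensity trend, 2 with the replicate block or the mean of probe sets, and 0 to 2 with 1 array left out. For 11 against 5.5 mM in young islets it was 3, and 1 with only arrays of the same set. For 11 against 3 mM in old islets it was 4, but 2 without the set term and 1 to 2 with 1 array left out. For 5.5 against 3 mM in old islets it was 0, and 1 with the block. For 11 against 5.5 mM in old islets it was 1, but 2 with only arrays of the same set, 4 with the block and 0 to 1 with 1 array left out.

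For old against young fresh islets it was 2, but 0 without the set term, 0 with the cre-3 covariate, which was added after the data were seen, and 0 to 1 with 1 array left out. At 11 mM it was 3, and 1 to 3 with 1 array left out. At 5.5 mM it was 0, but 1 without the set term, 1 with the block and 0 to 1 with 1 array left out. At 3 mM it was 0, but 1 with the block and 0 to 1 with 1 array left out.

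For culture at 11 mM against fresh young islets it was 0, but 2 without the set term, 3 with only arrays of the same set, 3 with the block, 1 with the mean of probe sets and 0 to 1 with 1 array left out. In old islets it was 0, and 1 with only arrays of the same set or the mean of probe sets. For 5.5 mM against fresh old islets it was 1, but 3 with only arrays of the same set and 2 with the block. For 3 mM against fresh old islets it was 3, but 1 without the set term and 1 to 2 with 1 array left out. For the change at 11 against 3 mM in old minus young islets it was 0, but 2 with the block, 1 with an offset of 64 or quantile normalization, and 0 to 2 with 1 array left out. At 4 h against time 0 it was 1, but 3 with the block and 2 with the mean of probe sets. Comparisons across the sets could not be fitted with only arrays of the same set. The replicate block ended no call of a member.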

Other observations

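Some genes of copper and iron handling also changed with glucose. Of 11 copper genes, all tested, 2 rose and 3 fell at 16 against 3 mM in young islets, where 14.5% of all genes rose and 14.2% fell, so nothing is read from these counts. Commd1, whose product takes part in copper export, had 318 and 361 at 16 mM against 722 and 774 at 3 mM and fell by 1.11 (SE 0.14, adjusted p = 7.99e-06). Atp7a, the copper-transporting ATPase, had 1447 and 1535 at 16 mM against 715 and 861 at 3 mM and rose by 0.91 (SE 0.14, adjusted p = 7.8e-05). In old islets at 11 against 3 mM Atp7a rose by 0.99 (SE 0.14, adjusted p = 5.28e-05) and Commd1 fell by 0.71 (SE 0.14, adjusted p = 0.000928). Sod1, the copper and zinc superoxide dismutase, had 2495 and 2823 at 11 mM against 4587 and 4178 at 3 mM in old islets and fell by 0.72 (SE 0.14, adjusted p = 0.000952). Slc31a1, the copper importer, had 247 and 167 at 4 h against 82 and 90 at time 0 and rose by 1.11 (SE 0.19, adjusted p = 0.000766). It was the 1 copper gene to pass there.

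Of 14 iron genes, 11 were tested, and 2 rose and 2 fell in the same comparison, also near the 28.7% of all genes that changed. Slc25a28, a mitochondrial iron carrier, had 792 and 581 at 16 mM against 1275 and 1279 at 3 mM and fell by 0.90 (SE 0.15, adjusted p = 0.000179). In old islets it had 397 and 363 at 11 mM against 857 and 773 at 3 mM and fell by 1.07 (SE 0.15, adjusted p = 4.66e-05). Slc40a1, the iron exporter, had 910 and 791 at 11 mM against 459 and 528 at 3 mM in old islets and rose by 0.77 (SE 0.13, adjusted p = 0.000173). Ireb2, which binds iron-responsive messenger RNAs, rose by 0.61 at 16 against 3 mM in young islets (SE 0.13, adjusted p = 0.00137).

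Slc39a10 ran opposite to Mt2. Over the 12 set-adjusted group means its Pearson r with Mt2 was -0.968, the third lowest of all genes tested, and -0.914 with Mt1 and -0.874 with Slc30a1. This gene was singled out after its values were seen, and the value describes 12 group means.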
